A study of Mus musculus with 6 samples.

Results

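The proteasome genes were described across 6 expression arrays of mouse pluripotent stem cells. They were the genes whose only platform symbol begins with Psm, a letter from a to g and a number, and there were 50 of them among 19308 genes with a probe set of their own. They had 56 probe sets. Of the genes, 5 had more than 1 probe set, and each gene was read from its brightest probe set, averaged over the 6 arrays. This rule uses names and brightness, not the difference between groups. Of the 50, 31 encode standing parts of the constitutive proteasome and 5 belong to the immunoproteasome. A further 12 are other catalytic or alpha subunits, activators, assembly factors and an inhibitor. The last 2, Psmc3ip and Psme3ip1, match the name but are not proteasome subunits.

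The study compared 3 arrays of induced pluripotent stem (iPS) cells with 3 arrays of embryonic stem cells obtained by nuclear transfer (ntES). All cells came from tail tip fibroblasts of G3 Terc-/- mice, the generation 3 descendants of mice that lack Terc, the RNA template of telomerase, so the controls carry the deletion as well. The labels give no age and no other allele, and they do not name the reprogramming factors or how they were delivered. All cultures grew on mouse embryonic fibroblasts treated with mitomycin C. The design text calls the 3 arrays of a group biological repeats of a cell line. Where a group is a single line, that line and the way of reprogramming cannot be told apart, and the p-values measure only the spread between these samples.

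The proteasome degrades proteins that carry ubiquitin chains. Its barrel-shaped 20S core has outer alpha rings, which form the gate, and inner beta rings, which hold the cutting sites. The 19S particle caps the core, binds ubiquitin chains and unfolds the substrate with a ring of ATPases. In cells exposed to interferon-gamma, inducible catalytic subunits replace the constitutive ones, and the activator made of Psme1 and Psme2 is raised. This immunoproteasome produces peptides for display on MHC class I. Pluripotent stem cells are known for high proteasome activity.

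The values are log2 expression values as deposited, a scale taken from the values themselves, since no source used here gives the normalization. A gene was called when its adjusted p was under 0.05 in limma's test over all 23344 probe sets, and differences are ntES minus iPS. Probe sets of different genes differ in how brightly they bind, so levels of different genes are not set against each other. The array medians lay between 7.61 and 7.70, and the 90th percentile lay between 10.002 and 10.401. The pluripotency factors Pou5f1, Sox2 and Nanog read from 11.1 to 12.4 on every array and were not called. Of 8 pluripotency markers, 2 fell in ntES cells and none rose, or 25% called, against 11.3% of all probe sets. The 2 were Esrrb at -0.79 and Zfp42 at -0.49 (log2; adjusted p = 0.00135 and 0.0185, limma). Dppa5a, the 1 marker above 0, differed by 0.34 with groups apart and was not called. Of 16 fibroblast markers, which feeder cells also express, 9 rose and 1 fell, or 62.5% called. Their mean level was 9.99 to 10.31 on the iPS arrays and 10.34 to 10.63 on the ntES arrays. Of 5 immune markers, with a mean level of 6.95 to 7.01 on the iPS arrays and 7.33 to 7.36 on the ntES arrays, Lyz2 and Cd3e rose, while Ptprc, which marks blood cells, read 6.16 to 6.51, below every array median. The 4 endoderm markers included 2 that rose, Gata4 and Gata6, and their mean level was 7.83 to 7.87 on the iPS arrays and 8.02 to 8.08 on the ntES arrays. The part of these cells in the values below was not tested.

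With the deposited values, most proteasome genes did not differ between ntES and iPS cells by more than the spread between arrays. In all, 3 of the 50 were called, or 6%, and the share over all probe sets was 11.3%. Psma8, an alpha subunit of germ cells, rose in ntES cells, where 5.19% of all probe sets were called higher. Psme3, a nuclear activator of the core, and Psmd4, a ubiquitin receptor of the 19S particle, fell, where 6.13% of all probe sets were called lower. At an unadjusted p under 0.05 there were 6 genes, or 12%, against 24.6% of all probe sets. The groups did not overlap for 6 of the 50 genes, or 12%, against 26.5% of all probe sets. Over the 50 genes the median difference was -0.04 (log2), and over all probe sets it was 0.04. It was -0.035 over the 31 constitutive genes and -0.034 over the 3927 probe sets with a mean within their range. These counts depend on the scaling of the arrays. After quantile normalization, described below, 22 of the 50 genes were called, or 44%, against 30.1% of all probe sets. In bulk samples, fewer cells of a type and less RNA per cell cannot be told apart.

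Psma8 takes the place of Psma7 in the proteasome of developing sperm. It read 6.80, 6.77 and 6.67 on the iPS arrays and 7.46, 7.47 and 7.64 on the ntES arrays (log2). All ntES values lay above all iPS values, and on all 6 arrays the value lay below that array's median. The difference was 0.77 ± 0.09 (log2, SE, n = 3 each; adjusted p = 0.000394, limma), a 1.71-fold higher value. Leaving out any 1 array kept it called, with adjusted p between 0.000307 and 0.00482. Its somatic counterpart Psma7 differed by 0.19 ± 0.13 (log2, SE) and was not called.

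Psme3 forms a ring that opens the core without ATP and acts mainly in the nucleus. It read 11.34, 11.46 and 11.19 on the iPS arrays and 10.61, 10.79 and 10.97 on the ntES arrays. The highest ntES value lay below the lowest iPS value. The difference was -0.54 ± 0.11 (log2, SE, n = 3 each; adjusted p = 0.0109, limma), a 1.45-fold lower value in ntES cells. Psme3ip1, which encodes a protein that binds the Psme3 activator, differed by -0.29 ± 0.11 (log2, SE; adjusted p = 0.114, limma). Psme4, an activator that caps the core in the nucleus, differed by 0.13 ± 0.11, so the members of the activator group lay on both sides of 0.

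Psmd4 binds ubiquitin chains for the 19S particle. It read 9.997, 10.06 and 9.92 on the iPS arrays and 9.36, 9.53 and 9.75 on the ntES arrays. The groups were apart, with ntES replicate 3 closest to the iPS values. The difference was -0.45 ± 0.10 (log2, SE, n = 3 each; adjusted p = 0.0217, limma), a 1.36-fold lower value. Neither Psme3 nor Psmd4 was called without iPS replicate 1 (adjusted p = 0.0634 and 0.0962), iPS replicate 2 (0.0727 and 0.118) or ntES replicate 2 (0.0637 and 0.11). The unmoderated test gave 0.136 and 0.162.

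Psmc1, an ATPase of the 19S ring, depended on the probe set. The brightest one read 10.92, 10.99 and 10.75 on the iPS arrays and 10.40, 10.57 and 10.77 on the ntES arrays. These groups overlapped at ntES replicate 3, and the difference of -0.31 ± 0.11 was not called (log2, SE; adjusted p = 0.106, limma). The other probe set read 10.93, 11.03 and 10.73 on the iPS arrays and 10.18, 10.32 and 10.54 on the ntES arrays. Here the groups were apart, and the difference of -0.55 ± 0.11 was called (log2, SE; adjusted p = 0.0116, limma). With the mean of both probe sets Psmc1 was called at -0.43 (adjusted p = 0.0313), and without ntES replicate 3 the brightest one was called at -0.40 (adjusted p = 0.0197). Over all settings the adjusted p of Psmc1 ran from 6.9e-05 to 0.379. Whether any probe set of Psmc1 or Psma3 also reads a close copy of the gene was not checked.

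**Figure D1:**
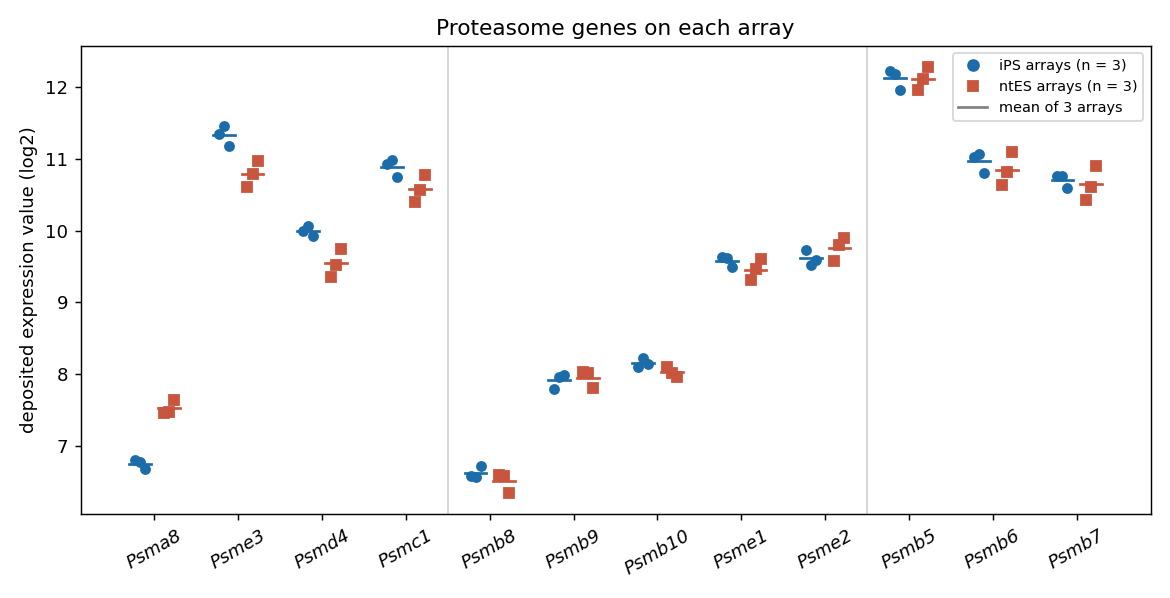
Deposited log2 expression values (vertical axis) of 12 proteasome genes (horizontal axis) on the 3 iPS arrays (circles) and 3 ntES arrays (squares), with a line at each mean of 3 arrays. The groups are apart for Psma8, Psme3, Psmd4 and Psmb10, of which Psmb10 was not called, and overlap for the others.

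The bases before the transcription start are shown for the 3 genes with a lower called probe set, Psme3, Psmd4 and Psmc1, and for Psmb8 and Psmb5, a catalytic subunit of the immunoproteasome and its constitutive counterpart. The sequences are RefSeq's on GRCm38.p6, 250 bases each, 5′ to 3′ on the gene's strand. Psme3 lies at chr11:101315963-101316212 (+ strand), Psmd4 at chr3:95042615-95042864 (- strand) and Psmc1 at chr12:100109952-100110201 (+ strand). Psmb8 lies at chr17:34197945-34198194 (+ strand) and Psmb5 at chr14:54617996-54618245 (- strand). Capitals mark matches, on either strand, to the motifs described after the sequences.
Psme3: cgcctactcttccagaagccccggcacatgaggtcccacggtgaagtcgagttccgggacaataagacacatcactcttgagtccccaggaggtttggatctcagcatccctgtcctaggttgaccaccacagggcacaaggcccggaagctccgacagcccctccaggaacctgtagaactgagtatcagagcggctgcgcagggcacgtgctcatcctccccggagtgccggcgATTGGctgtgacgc
Psmd4: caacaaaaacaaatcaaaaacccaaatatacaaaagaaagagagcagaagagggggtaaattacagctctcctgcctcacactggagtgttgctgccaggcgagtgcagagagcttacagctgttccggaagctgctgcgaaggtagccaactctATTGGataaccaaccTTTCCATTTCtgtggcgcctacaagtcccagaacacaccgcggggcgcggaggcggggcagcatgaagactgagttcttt
Psmc1: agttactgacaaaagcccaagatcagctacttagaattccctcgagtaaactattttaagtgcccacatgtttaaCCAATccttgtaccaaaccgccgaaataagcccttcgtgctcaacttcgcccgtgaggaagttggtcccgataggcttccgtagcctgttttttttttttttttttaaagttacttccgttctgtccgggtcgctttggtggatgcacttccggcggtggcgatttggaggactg
Psmb8: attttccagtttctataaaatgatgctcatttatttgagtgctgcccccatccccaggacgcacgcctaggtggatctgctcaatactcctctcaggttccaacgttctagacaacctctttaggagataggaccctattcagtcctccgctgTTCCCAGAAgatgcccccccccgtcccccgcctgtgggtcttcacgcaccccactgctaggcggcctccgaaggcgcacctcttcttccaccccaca
Psmb5: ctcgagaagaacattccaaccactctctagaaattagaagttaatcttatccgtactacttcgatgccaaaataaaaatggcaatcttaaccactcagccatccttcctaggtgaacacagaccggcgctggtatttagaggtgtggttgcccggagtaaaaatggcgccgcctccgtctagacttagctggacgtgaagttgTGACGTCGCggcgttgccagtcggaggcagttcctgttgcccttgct

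The motifs searched on both strands were the CCAAT box (CCAAT), the core of the interferon-stimulated response element (GAAA, any 2 bases, GAAA), the gamma-activated sequence (TTCNNNGAA) and the core of the antioxidant response element bound by Nrf1 and Nrf2 (TGACNNNGC). Of the 50 genes, 42 were matched to 46 promoters. The CCAAT box was found in 16 of the 46, or 34.8%, and in 33.8% of all 32851 promoters. Psme3, Psmd4 and Psmc1 each held it, 14, 95 and 175 bases before the start. The antioxidant core was found in 5, or 10.9%, against 10.2% of all promoters, and these were Psmb5, Psmb6, Psmc6, Psmd12 and Psmd9. The gamma-activated sequence was found in Psmb8 and Psmg1, or 4.35%, against 7.02%. The interferon-stimulated core was found in Psmb3, Psmd4 and Psmd9, or 6.52%, against 2.98%, and in Psmd4 it lay 10 bases after the CCAAT box without overlap. A match describes letters in this window only.

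The alpha ring did not move as a block. Of Psma1 to Psma7, 4 lay above 0 and 3 below, with differences from -0.18 for Psma5 to 0.19 for Psma7 and a median of 0.00 (log2). None was called by limma, at an unadjusted p under 0.05 or by the unmoderated test. Over all probe sets those shares were 11.3%, 24.6% and 3.01%. Psma3, the member with 3 probe sets, differed by 0.00 on the brightest and by -0.06 and -0.14 on the others. The structural beta subunits Psmb1 to Psmb4 differed by 0.03, -0.01, -0.14 and -0.01.

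The constitutive catalytic subunits differed little. Psmb5, which cuts after hydrophobic residues, read 12.23, 12.18 and 11.96 on the iPS arrays and 11.96, 12.11 and 12.28 on the ntES arrays. The groups covered nearly the same range, and the difference was -0.01 ± 0.11 (log2, SE; 95% interval -0.24 to 0.23). Psmb6, which cuts after acidic residues, read 11.02, 11.07 and 10.80 on the iPS arrays and 10.63, 10.81 and 11.09 on the ntES arrays. Its groups overlapped, with a difference of -0.12 ± 0.12 (interval -0.39 to 0.15). Psmb7, which cuts after basic residues, read 10.77, 10.77 and 10.59 on the iPS arrays and 10.43, 10.60 and 10.90 on the ntES arrays. It differed by -0.06 ± 0.12 (interval -0.33 to 0.20), with ntES replicates 1 and 3 outside the iPS range on either side.

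The 19S particle was mixed as well. Of its 6 ATPases, 3 lay above 0 and 3 below, from -0.31 for Psmc1 to 0.16 for Psmc2. Of 11 non-ATPase subunits, Psmd4 fell and none rose, 4 lay above 0 and 7 below, and the median was -0.06. Psmd1, a scaffold of the base, and Psmd14, the enzyme that removes ubiquitin chains before degradation, differed by 0.22 ± 0.11 and 0.19 ± 0.11. Psmd7, the partner of Psmd14, differed by -0.23 ± 0.12. All 3 failed the test. Psmd5, Psmd9 and Psmd10, chaperones that build the 19S base, differed by 0.14, -0.02 and -0.18.

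Of the assembly chaperones of the core, Psmg3 read 6.87, 7.03 and 7.10 on the iPS arrays and 7.35, 7.26 and 7.17 on the ntES arrays. The groups did not overlap, but the difference of 0.26 ± 0.09 was not called (log2, SE; adjusted p = 0.102, limma). Psmg3 was called higher with array weights, quantile normalization or trend and robust priors, and without ntES replicate 3. Psmg1, Psmg2 and Psmg4 differed by 0.08, -0.11 and -0.11. Psmf1, an inhibitor of the core in the test tube, differed by -0.25 ± 0.12. Psmb11, the catalytic subunit of thymus epithelium, differed by 0.13 ± 0.10 and read 6.81 to 7.17, below every array median. Psmc3ip, a partner of meiotic recombinases, differed by -0.19 ± 0.09 with groups that did not overlap.

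**Figure D2:**
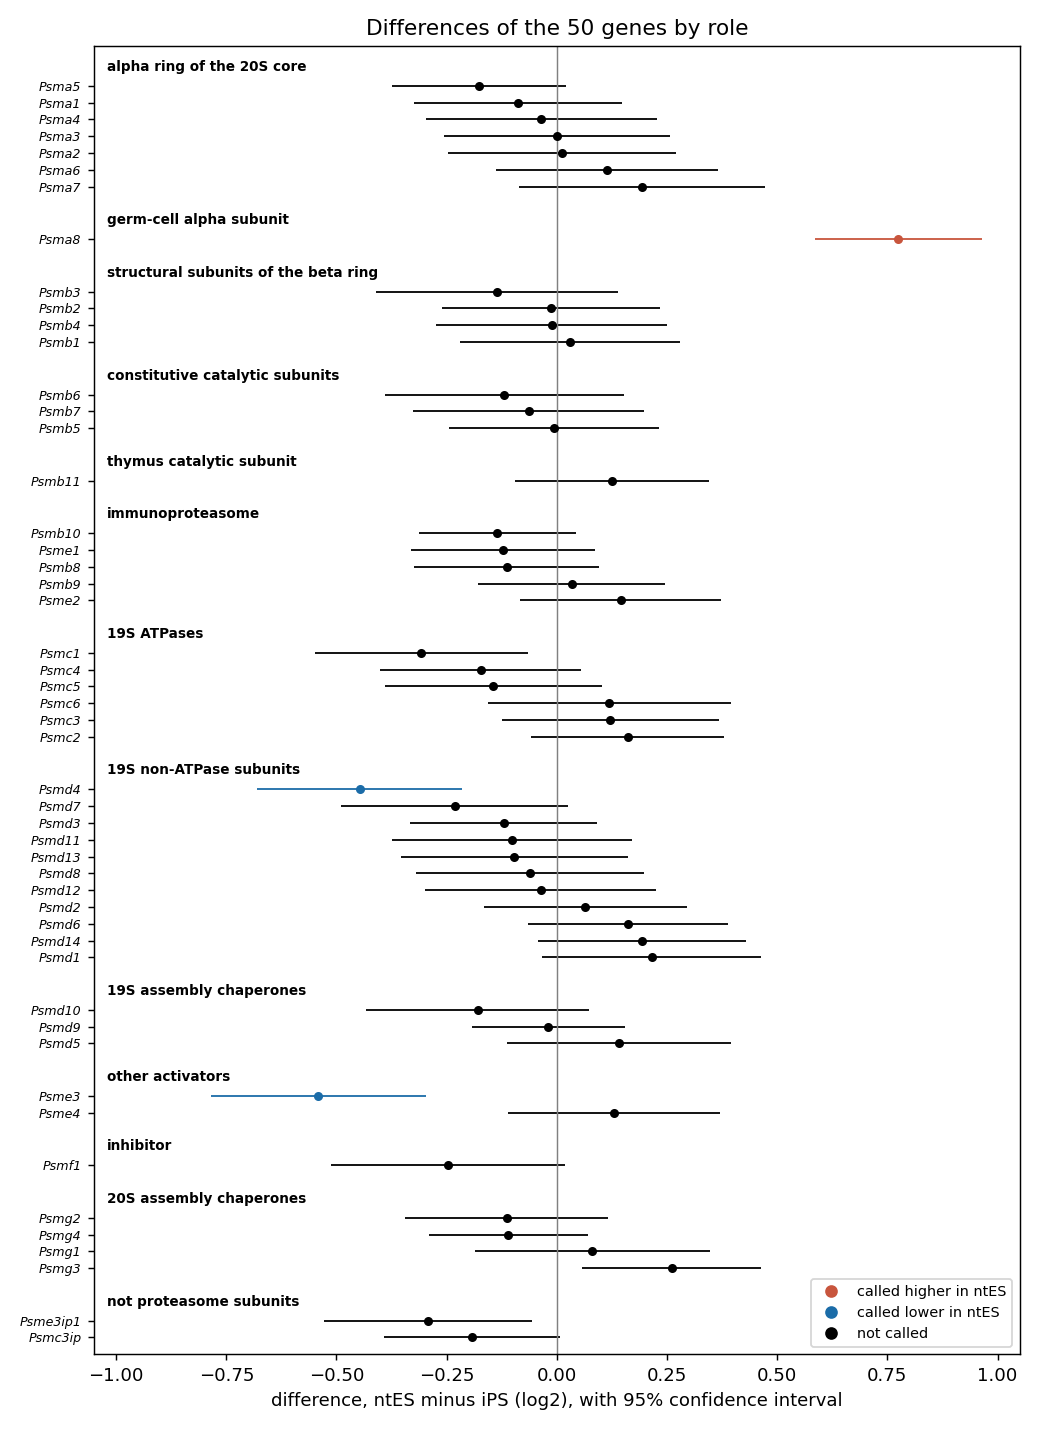
Difference between ntES and iPS cells (horizontal axis, log2, ntES minus iPS) for each of the 50 genes (vertical axis), grouped by role, with 3 arrays a group. Points are limma's estimates and bars their 95% confidence intervals. Psma8 at 0.77, Psme3 at -0.54 and Psmd4 at -0.45 were called, and the other 47 genes lay between -0.31 and 0.26.

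With the deposited values, the immunoproteasome genes were not called in either direction. None of the 5 passed limma's test, an unadjusted p under 0.05 or the unmoderated test, and their adjusted p lay between 0.343 and 0.86. Over all probe sets the shares were 11.3%, 24.6% and 3.01%. A count of 0 among 5 genes lies near these shares. Psmb8, the inducible counterpart of Psmb5, read 6.59, 6.56 and 6.72 on the iPS arrays and 6.60, 6.59 and 6.35 on the ntES arrays. Every value lay below the array medians, and the difference was -0.11 ± 0.09 (log2, SE; 95% interval -0.32 to 0.10). Psmb9, the inducible counterpart of Psmb6, read 7.79, 7.96 and 7.99 on the iPS arrays and 8.03, 8.02 and 7.80 on the ntES arrays. Its groups overlapped, and the difference was 0.03 ± 0.10 (interval -0.18 to 0.25).

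Psmb10, the inducible counterpart of Psmb7, read 8.10, 8.23 and 8.15 on the iPS arrays and 8.10, 8.02 and 7.96 on the ntES arrays. The ntES values lay below the iPS values by a margin of under 0.01, and the difference was -0.13 ± 0.08 (interval -0.31 to 0.04). The activator genes went opposite ways, neither past the test. Psme1 read 9.63, 9.61 and 9.50 on the iPS arrays and 9.31, 9.46 and 9.60 on the ntES arrays, a difference of -0.12 ± 0.09 (interval -0.33 to 0.09). Psme2, its partner in the ring, read 9.73, 9.52 and 9.59 on the iPS arrays and 9.57, 9.80 and 9.90 on the ntES arrays, a difference of 0.14 ± 0.10 (interval -0.08 to 0.37). A further probe set named for both Psme2 and Psme2b was not used. All 5 intervals lay within 0.5 of 0 on the log2 scale, as did those of 29 of the 31 constitutive genes.

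Set against each other, the immunoproteasome genes had a median difference of -0.11 and the 31 constitutive genes one of -0.04 (log2). The gap was -0.08. A related value is the immunoproteasome median minus the constitutive median within each array. It was -2.68, -2.59 and -2.52 on the iPS arrays and -2.33, -2.62 and -2.93 on the ntES arrays. Between single arrays of a group this within-array value had an SD of 0.22, pooled over both groups. The ntES arrays were spread more widely than the iPS arrays. That SD is not an error of the gap of -0.08, which was not tested. Of the constitutive genes, 12 lay above 0 and 19 below, Psmd4 alone was called, and 2 had an unadjusted p under 0.05. Within an array, the value of Psmb8 relative to Psmb5 changed by -0.11 (log2), Psmb9 relative to Psmb6 by 0.15 and Psmb10 relative to Psmb7 by -0.07, and for each pair the groups overlapped.

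Some other interferon-induced genes differed between the same arrays. Of 9 measured genes of the interferon response, 6 fell in ntES cells and none rose. That is 66.7% called lower, against 6.13% of all probe sets. The 9 had a median difference of -0.64 (log2) and a mean level of 7.43 to 7.68 on the iPS arrays and 6.77 to 6.92 on the ntES arrays. Mx1, Mx2 and Rsad2 of this list were not called, and their groups overlapped. Usp18, which removes ISG15 from proteins, was at 9.55, 9.10 and 9.15 on the iPS arrays and 7.54, 7.52 and 7.57 on the ntES arrays. Irf7, a transcription factor of the interferon response, was at 7.66, 7.41 and 7.61 on the iPS arrays and 6.95, 7.06 and 6.75 on the ntES arrays. Usp18 and Irf7 had groups far apart, and both were picked after their values were seen. Among the immunoproteasome genes, the groups overlapped at Psmb8, Psmb9, Psme1 and Psme2 and were narrowly apart at Psmb10. That is 20% with groups apart, near the 26.5% of all probe sets. Of 11 measured genes of interferon-gamma control and peptide loading, none was called by limma, none had an unadjusted p under 0.05, and none passed the unmoderated test. The shares over all probe sets were 11.3%, 24.6% and 3.01%. Among them Irf1, a factor that acts on the Psmb9 promoter, read 7.83, 7.81 and 7.77 on the iPS arrays and 7.85, 7.96 and 8.21 on the ntES arrays, with groups that did not overlap and a difference of 0.20 ± 0.10 (log2, SE; adjusted p = 0.248, limma). In the gene order of GRCm38.p6, Psmb9, Tap1, Psmb8 and Tap2 are neighbours, and the peptide transporter genes Tap1 and Tap2 differed by -0.08 and 0.08. A test of the difference between these gene groups was not made.

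**Figure D3:**
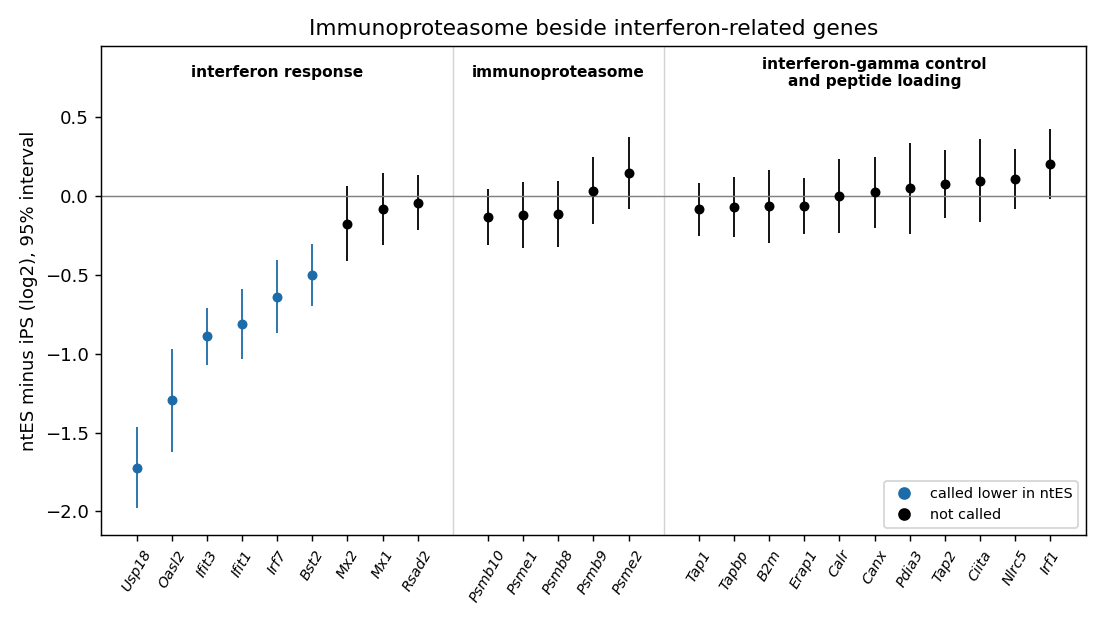
Difference between ntES and iPS cells (vertical axis, log2, 95% confidence interval, 3 arrays a group) for 9 genes of the interferon response, the 5 immunoproteasome genes and 11 genes of interferon-gamma control and peptide loading (horizontal axis). Usp18 was the lowest at -1.72, while the immunoproteasome genes lay between -0.13 and 0.14.

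A list of 47 further genes of the pathway had 37 measured, of which 11 are the genes of interferon-gamma control and peptide loading already described. The other 26, of 35 listed, are partners and assembly factors, deubiquitinases and shuttles, transcription regulators, the segregase and ubiquitin genes. Of these 26, 1 rose and none fell, or 3.85% called, against 11.3% of all probe sets, and 6 had an unadjusted p under 0.05, against 24.6%. Their median was 0.00. Zfand2a, a stress-induced protein that associates with the 19S particle, read 10.70, 10.64 and 10.49 on the iPS arrays and 10.85, 11.03 and 11.30 on the ntES arrays. The groups did not overlap, and the difference was 0.45 ± 0.12 (log2, SE; adjusted p = 0.0347, limma). Zfand2a was not called after median centring (adjusted p = 0.0676), with the unmoderated test (0.222), or without iPS replicate 1 (0.0905), 2 (0.121) or 3 (0.112) or ntES replicate 2 (0.125).

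Nfe2l1, whose product Nrf1 raises proteasome genes when activity is short, read 10.38, 10.37 and 10.23 on the iPS arrays and 10.12, 10.28 and 10.39 on the ntES arrays. Its groups overlapped, and it differed by -0.06 ± 0.09. Ngly1, the enzyme that activates Nrf1 by removing its sugars, differed by -0.33 ± 0.10 with groups that did not overlap (adjusted p = 0.0633, limma). It was called after median centring, at -0.39 (adjusted p = 0.0392), and over all settings its adjusted p ran from 3.19e-05 to 0.255. The related factor gene Nfe2l2 read 10.50, 10.48 and 10.34 on the iPS arrays and 10.61, 10.83 and 11.04 on the ntES arrays, with groups that did not overlap and a difference of 0.39 ± 0.11 that was not called (adjusted p = 0.0513, limma). It was called under 5 of the 15 other settings, and over all settings its adjusted p ran from 7.63e-05 to 0.241. Ngly1 and Nfe2l2 were named after their values were seen. Pomp, which matures the core, read 9.59, 9.64 and 9.41 on the iPS arrays and 9.56, 9.69 and 9.94 on the ntES arrays, a difference of 0.18 ± 0.11. The remaining 10 listed genes were not analysed here.

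The constitutive genes shared a pattern from array to array. In all 31, ntES replicate 1 was the lowest and ntES replicate 3 the highest of the ntES arrays, and iPS replicate 3 was the lowest of the iPS arrays. Their median was 10.79, 10.82 and 10.67 on the iPS arrays and 10.43, 10.64 and 10.90 on the ntES arrays. The ntES arrays thus spanned more than the whole iPS range. Probe sets of the same brightness did the same: of the 3927 with a mean within the range of the constitutive genes, 99.0%, 99.3% and 96.8% had these arrays lowest, highest and lowest. Over all probe sets the shares were 49.5%, 47.2% and 45.0%. The SD over all probe sets also was lowest on ntES replicate 1, at 1.51, and highest on ntES replicate 3, at 1.74. Of the immunoproteasome genes, 2 had ntES replicate 1 lowest, 2 had ntES replicate 3 highest and 1 had iPS replicate 3 lowest.

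**Figure D4:**
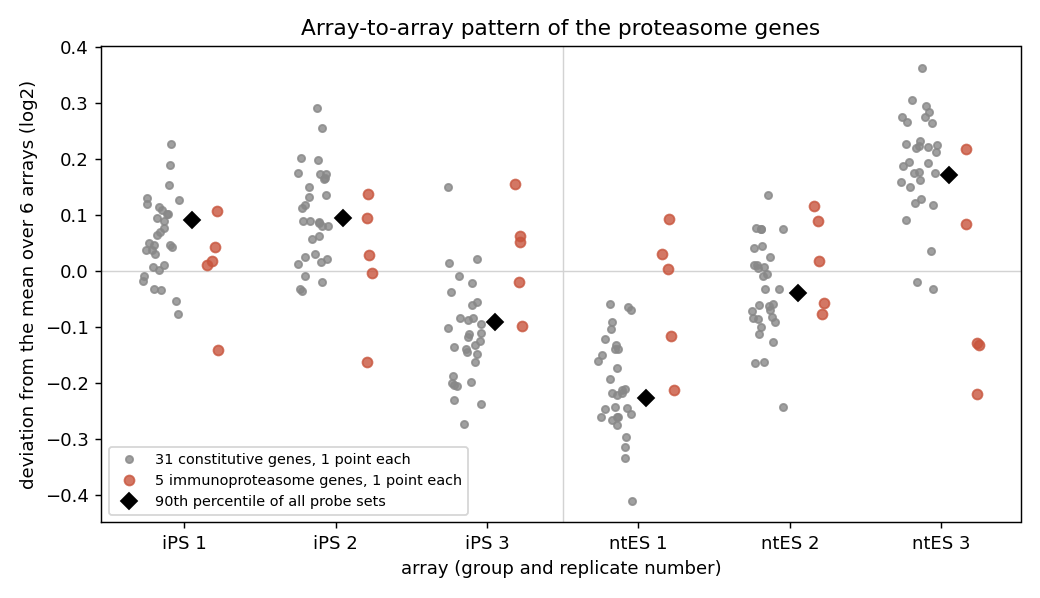
Deviation of each gene from its own mean over 6 arrays (vertical axis, log2) on each array (horizontal axis), for 31 constitutive genes (grey points) and 5 immunoproteasome genes (red points), with the 90th percentile of all probe sets treated the same way (black diamonds). On ntES replicate 1 all constitutive genes lie below 0, as does the diamond, and on ntES replicate 3 most lie above 0.

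Quantile normalization, which gives all arrays the same distribution, brought the median standard error of the 50 genes from 0.11 to 0.04 (log2). Over all probe sets the median standard error went from 0.096 to 0.053. Over the 3927 within the brightness range of the constitutive genes it went from 0.111 to 0.045. The normalization also moved some differences: Psmb8 went from -0.11 to -0.20, Psmg3 from 0.26 to 0.17, Psmb11 from 0.13 to 0.03 and Psme1 from -0.12 to -0.07. It called 22 of the 50, or 44.0%, of which 13 were higher and 9 lower in ntES cells, against 30.1% of all probe sets. Psma8, Psme3 and Psmd4 were among them, at 0.68, -0.52 and -0.39. The constitutive genes then split into 8 higher, such as Psma7 at 0.25, Psmc2 at 0.22 and Psmd1 at 0.21, and 4 lower, such as Psmc1 at -0.28 and Psmd7 at -0.20. Of the immunoproteasome genes, Psmb8 was then lower at -0.20 (adjusted p = 0.0092, limma) and Psme2 higher at 0.20 (adjusted p = 0.0474, limma). With array weights, under which 56.3% of all probe sets were called, Psme2 was higher, Psmb10 and Psme1 were lower, and Psmb8 was not called. Without ntES replicate 3, and without this normalization, 11 of the 50 were called, against 21.6% of all probe sets. When replicate 1 or 2 of the iPS arrays or replicate 2 of the ntES arrays was left out, Psma8 was the 1 member called, against 4.86%, 4.46% and 4.34% of all probe sets. Leaving out iPS replicate 3 or ntES replicate 1 kept Psma8, Psme3 and Psmd4 as the members called, against 8.38% and 12.6% of all probe sets.

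**Figure D5:**
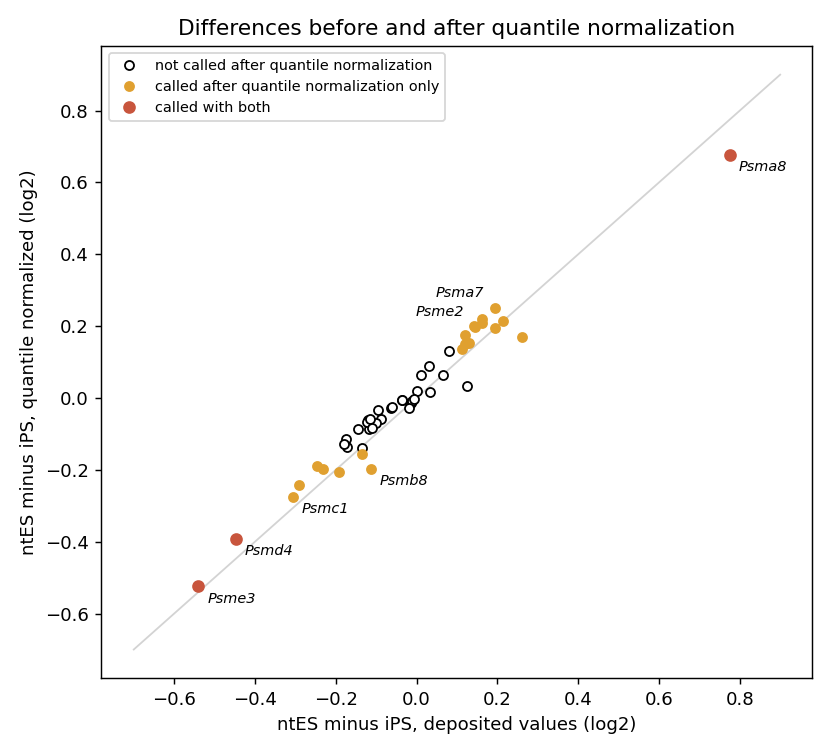
Difference between ntES and iPS cells (log2) of each of the 50 genes with the deposited values (horizontal axis) and after quantile normalization (vertical axis), with a line of equality. Psma8, Psmb8, Psmb11 and Psmg3 lie below the line. Red points were called with both (3 genes), orange points only after quantile normalization (19 genes), and open points with neither (28 genes).

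Neighbouring genes were described for the members with a called probe set and for the immunoproteasome genes. The 10 measured genes on each side in the gene order of GRCm38.p6 were used. Around Psmc1, 9 of 20 neighbours fell and none rose, with a median of -0.32 (log2), and Tdp1, which repairs trapped topoisomerase, differed by -1.11. Around Psmd4, 4 of 20 fell and none rose, with a median of -0.06, and the adjacent zinc finger gene Zfp687 differed by -0.76. Around Psme3, 2 rose and 1 fell, with a median of 0.05. Around Psma8, 3 rose and 2 fell, with a median of 0.01. Around Psmb10, which was not called, 5 of 20 fell and none rose, with a median of -0.10. Around each of Psmb8, Psmb9, Psme1 and Psme2, 1 fell and 1 or 2 rose. Over all probe sets 6.13% fell and 5.19% rose.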

How the data were processed

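RNA was extracted with Trizol and labelled with biotin through the WT Terminal Labeling Kit, per the labels' protocols, and GCOS 1.4 is named in the submitters' processing notes. The deposited table holds log2 expression values of 23344 probe sets on 6 arrays. No source used here gives the background correction, normalization or genome build. The number of arrays limits the precision. Groups came from the sample titles.

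Because the array medians lay within 0.088 of each other, under a limit of 0.1, the deposited log2 values were tested without further scaling. The 1 comparison used limma 3.58.1 (lmFit, eBayes, two-sided) in R 4.3.3 on all probe sets, with Benjamini-Hochberg adjustment. The fit was tested on simulated data. Python 3.11.15 and pandas 2.3.3 made the counts, and matplotlib 3.10.9 the figures. Of the probe sets, 20746 had 1 platform symbol, 1183 several, and 1415 none.

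The proteasome family, the gene lists and the tests were chosen with earlier results of these data known, and within the family the name rule took every match. Values on each array are given for the immunoproteasome genes, their catalytic counterparts and called members, and for called pathway genes, Nfe2l1, Pomp and Irf1. Psmc1, Psmg3, Nfe2l2, Ngly1, Usp18, Irf7 and the neighbouring genes were added after their values were seen. The 15 alternative settings were quantile normalization, array weights, a threshold of 0.01, the mean of a gene's probe sets, median centring, a replicate block, trend and robust priors, no dim probe sets, the unmoderated test, and leaving out each array.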

Additional observations from a re-analysis of the deposited data

How the results depend on the processing

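Psma8 stayed called in the same direction under all 14 settings that tested it, and it was not tested without dim probe sets. Psme3 and Psmd4 kept their direction under all 15 settings and were not called under 5, with adjusted p from 1.25e-06 to 0.136 and from 3.01e-06 to 0.162. Zfand2a ran from 6.05e-05 to 0.222. Array weights called 26 proteasome genes, 13 constitutive, 3 immunoproteasome and 15 pathway genes, and 13147 probe sets in all; the default weight estimate did not converge, so the gene-by-gene estimate was used. Quantile normalization called 22, 12, 2, 13 and 7035. The unmoderated test called 1, 0, 0, 0 and 703, and a threshold of 0.01 called 1, 0, 0, 0 and 1150. The mean of probe sets called 2 constitutive and 2 pathway genes. Without dim probe sets, 32 pathway genes were tested and 3 called, against 19.3% of the probe sets tested there. Of all 37 measured pathway genes, 2 were called after median centring (both lower in ntES cells), against 11.7% of all probe sets. With trend and robust priors 2 of the 37 were called, against 15.9%. Median centring gave 823 probe sets higher and 1911 lower, in place of 1212 and 1431. Leaving out each array gave 1 to 11 proteasome genes, 0 to 4 constitutive, 0 immunoproteasome and 0 to 5 pathway genes, and 1014 to 5044 probe sets. The gap between immunoproteasome and constitutive median differences ran from -0.12 to 0.10 in those fits and was positive also with array weights (0.08). It moved in each setting by less than 0.22, the pooled SD between single arrays of the within-array gap of set medians. That SD belongs to a related value and is not an error of the gap itself.

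The deviations of same-numbered arrays from their group means correlated at -0.43, -0.10 and -0.72, and no array correlated best with its own number. These deviations include the array-wide differences in spread, so they cannot show whether the arrays were paired in preparation. With the replicate number as a block, 3 proteasome genes and 1983 probe sets were called. The 3 were Psma8, Psme3 and Psmd4.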
